A study of Mus musculus with 4 samples.

Results

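The genes for the proteins of the cytoplasmic ribosome were examined in chromatin accessibility data from embryoid bodies (EBs), aggregates in which mouse embryonic stem cells leave self-renewal and form early lineages. The ribosome reads mRNA into protein and consists of a small subunit, which decodes the mRNA, and a large subunit, which joins the amino acids. Genes of the small subunit are named Rps and genes of the large subunit Rpl, and the proteins of the P stalk, which recruits translation factors to the large subunit, are encoded by Rplp0, Rplp1 and Rplp2. Their promoters are open in growing cells, and their mRNAs start with a run of pyrimidines, the 5′ terminal oligopyrimidine (TOP) tract, through which growth signals set their translation. Members were all autosomal protein-coding genes of the mm10 GENCODE annotation with a symbol of Rpl or Rps and a number, with an optional a, x or l, together with the P stalk genes and Rpsa. This gave 76 genes of 20807 autosomal protein-coding genes, on 18 chromosomes, with 30 genes of the small and 46 of the large subunit.

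ATAC-seq, which marks open chromatin by the insertion of adapters with a transposase, was performed on day 4 after differentiation in WT EBs and in CTCF-K20R EBs (K20R below). Both derive from the stem cell line E14Tg2A, and in K20R the lysine at position 20 of the chromatin protein CTCF was replaced with arginine by CRISPR/Cas9. Colonies of edited cells were selected, and which clone or clones entered the libraries is not given in the sources used here. Stem cells were kept on mouse embryo fibroblasts and then differentiated in hanging drops without LIF, in both genotypes. There were 2 libraries of each genotype, described by the study as biological replicates, and each has a peak list of its own with 59783 and 66703 peaks in WT against 51823 and 55832 in K20R. The depth recovered from the lists, relative to WT replicate 1, was 1 and 0.976 in WT against 1.15 and 1.04 in K20R. It was thus higher in both K20R libraries than in both WT libraries. Peaks lay at the promoters of the streak and mesoderm genes T, Mixl1, Eomes and Mesp1 in all 4 libraries. The fibroblast markers Col1a1, Col1a2 and Thy1 had them in all 4 as well. So did the pluripotency genes Nanog and Sox2, the endoderm genes Sox17 and Foxa2 and the neuroectoderm genes Sox1 and Pax6. The pluripotency gene Pou5f1 had none in K20R replicate 1 and had a peak in the 3 other libraries. Postn and Afp had none in any library. An open promoter does not show that a gene was expressed.

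A promoter peak is the strongest peak, by the −log10 p of its summit, with the summit within 1000 bp of a transcription start site (TSS) of the gene. Its percentile is its place by −log10 p in the list of its library, from 0 for the weakest to 100 for the strongest peak. Its downstream edge is the distance from the TSS to the end of the peak on the side of the gene body, and its upstream edge the same on the other side. Genotypes are called separated for a gene where both K20R values lie above both WT values, or both below. For a single value, an exact two-sided permutation test of 2 against 2 libraries has a smallest p of 0.33, so no gene can pass a threshold on its own. The first count of each kind is therefore given beside the percentage of all genes with a promoter peak in the 4 libraries for which the same was found, and later counts of that kind are to be read against the same percentage. For counts that combine 2 calls this percentage was not counted. Bulk libraries cannot tell a site open in more cells from a site more open per cell.

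Sequences of the promoters were taken from RefSeq (GRCm38.p6), from 250 bases before to 50 after the annotated start, and 56 of the 76 genes were matched. For 4 genes described below, the 120 bases before the start and the first 30 bases after it are shown 5′ to 3′ on the plus strand, which is the strand of each of these genes. They are Rplp0 at chr5:115559347-115559496, Rps19 at chr7:24884472-24884621, Rpl38 at chr11:114668460-114668609 and Rpl14 at chr9:120571397-120571546. Rplp0 and Rps19 stand for members with a higher and a lower peak rank in K20R, Rpl38 and Rpl14 for the largest gains in width. Capitals mark the letters of the CCAAT box and of TATAAA (in Rplp0 these begin 17 bases after the start), the SP1 core on either strand (letters GGGCGG on the plus strand), the ETS core (letters CCGGAAG), a palindrome with a CG repeat at its centre and runs of at least 8 pyrimidines.
Rplp0: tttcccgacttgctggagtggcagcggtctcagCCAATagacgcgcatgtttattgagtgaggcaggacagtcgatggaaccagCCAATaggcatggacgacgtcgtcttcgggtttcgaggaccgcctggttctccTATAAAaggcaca
Rps19: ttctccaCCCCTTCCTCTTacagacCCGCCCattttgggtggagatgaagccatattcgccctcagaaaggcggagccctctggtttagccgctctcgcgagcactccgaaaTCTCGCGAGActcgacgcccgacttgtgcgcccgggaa
Rpl38: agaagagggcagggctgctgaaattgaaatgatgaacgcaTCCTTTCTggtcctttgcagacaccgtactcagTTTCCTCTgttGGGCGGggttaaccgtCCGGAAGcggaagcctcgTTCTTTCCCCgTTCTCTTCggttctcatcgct
Rpl14: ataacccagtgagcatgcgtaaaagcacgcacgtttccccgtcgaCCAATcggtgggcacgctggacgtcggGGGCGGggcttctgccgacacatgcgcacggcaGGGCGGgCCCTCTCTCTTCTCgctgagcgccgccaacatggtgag
In Rpl14 a run of 14 pyrimidines began 8 bases before the annotated start, and in Rpl38 a run of 10 began 2 bases before it. The annotated starts shown lie 0, 221, 46 and 73 bp from the TSS used for the peaks of Rplp0, Rps19, Rpl38 and Rpl14. A match of letters is a description of the sequence and not a site.

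Several sequence features that the choice by symbol did not use were more frequent in the members than over all promoters. The annotated start lay 2614 bp from the TSS used for the peaks in Rpl18, 575 bp in Rps25 and 493 bp in Rpl35. A run of at least 8 pyrimidines lay within 50 bases of the start, on the gene's strand, in 82.1% of the 56 matched members and in 36.6% of 15686 promoters of the same length. A run of at least 8 pyrimidines that overlapped the 5 bases on either side of the start was found in 35.7% of members and 9.28% of all promoters, and a run of at least 5 pyrimidines there in 57.1% and 31.1%. CCGGAAG, on either strand as for the motifs that follow, was found in 41.1% of members and 12.8% of all promoters. The palindrome with a CG repeat at its centre, which begins 8 bases before the start shown for Rps19, was in 8.93% of members (Rpl12, Rpl26, Rps19, Rps28 and Rps6) and 0.733% of all. GGGCGG was in 57.1% of members and 49.9% of all, CCAAT in 30.4% and 38.4%, AAGATGGC (bound by YY1) in 7.14% and 3.31%, and the NRF1 palindrome in 1.79% and 1.43%. TATAAA between 40 and 20 bases before the start was in none of the matched members and in 2.77% of all promoters. It was within 50 bases of the start in 5.36% of members, Rplp0 among them, and in 4.07% of all. The CTCF consensus was found in 1 matched member, Rplp0, or 1.79% of members and 0.618% of all. The median GC content was 57.7% in both.

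To determine which ribosomal protein genes had an open promoter, the presence of a promoter peak was compared first. Of the 76 members, 72, 73, 75 and 74 had a promoter peak in WT replicates 1 and 2 and K20R replicates 1 and 2. In all 4 libraries it was found in 72 members, all 30 of the small and 42 of the large subunit, whereas 65.2% of all autosomal protein-coding genes had one. The 4 others were Rpl3l, Rpl10l, Rpl39l and Rpl41. A peak in both K20R libraries and in no WT library was found for 2 members, Rpl10l and Rpl39l, and for 0.548% of all genes. The reverse was found for 0 members and for 0.807% of all genes.

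Rpl3l, a paralog of Rpl3 used in striated muscle, had no promoter peak in any library. Rpl39l, a paralog of Rpl39 known from the testis, had promoter peaks at percentiles 50.8 and 34.2 in K20R and none in WT. The peak numbers on either side of the Rpl39l promoter are consecutive in both WT lists, so that no called peak was taken out there. Rpl10l, a paralog of the X-linked Rpl10 known from male germ cells, had peaks at percentiles 35.2 and 40.4 in K20R. Around Rpl10l, 10 and 18 peak numbers are not listed in WT, and a called peak may have been among them. These peaks of Rpl39l and Rpl10l were weaker than the K20R medians of 80.4 and 81.1 for the members with 4 peaks. Rpl41, which encodes the smallest protein of the large subunit, had a promoter peak in WT replicate 2 at percentile 71.5 and in K20R replicate 1 at percentile 73.9. In WT replicate 1 and K20R replicate 2 a single peak of 2041 and 2183 bp covered its TSS with the summit elsewhere, so the TSS lay inside a peak in all 4 libraries.

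Among the 72 members with 4 promoter peaks, the median percentile in the list was 81.6 and 80.7 in WT against 80.4 and 81.1 in K20R. Over all 13559 genes with 4 peaks it was 87.2, 88.0, 85.6 and 86.5. Ranked anew among these 13559 promoter peaks, the members had medians of 35.4, 31.1, 36.9 and 35.6, all below the 50.0 of all genes. Promoter peaks of ribosomal protein genes were thus in the strong part of each list and in the weaker part of the promoters. The fold over background showed this too, with medians at percentiles 72.0, 64.7, 63.6 and 59.1, against 85.0, 83.8, 83.4 and 82.0 over all genes. The median summit lay 35, 47, 41.5 and 32.5 bp upstream of the nearest TSS. Over all genes it was at -16, -18, -17 and -17 bp, where negative is upstream. In 50 members all 4 summits were within 150 bp of the nearest TSS, and in 12 they were within 20 bp of each other. The same was not counted over all genes.

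The members differed widely in rank. Rpl37 and Rpl15, both of the large subunit, had the strongest peaks, with percentiles of 99.0, 99.8, 98.9 and 99.2 for Rpl37 and 99.1, 99.6, 98.7 and 98.2 for Rpl15. Rps29, Rps13, Rpl34 and Rpl18 followed, with values between 92.9 and 99.4. At the low end, Rpl19 had percentiles of 43.9 and 34.6 in WT against 34.3 and 46.9 in K20R. Rpl8, whose protein lies near the peptidyl transferase centre, had 41.1 and 32.0 in WT against 52.4 and 54.7 in K20R. Rps18, of the head of the small subunit, had 40.2 and 36.1 in WT against 67.1 and 54.4 in K20R. Rpl38, Rpl36 and Rpl23a completed the 6 lowest, with values between 43.2 and 61.4. In Rpl8, Rps18 and Rpl36 the genotypes were separated with K20R higher, whereas in Rpl19, Rpl38 and Rpl23a they overlapped. The strongest and weakest promoters of the family therefore included genes of both subunits.

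To determine whether the rank of these promoters differed between genotypes, the 4 percentiles of each member were compared. In the whole list, 18 of the 72 members were lower in both K20R libraries, beside 31.6% of all genes, and 11 were higher, beside 16.1% of all genes. Ranked anew among promoter peaks, 11 were lower, beside 23.0% of all genes, and 19 were higher, beside 23.9%. The balance of lower and higher members turned with the scale, and over all genes it shifted the same way. By the fold over background, 26 were lower, beside 24.6% of all genes, and 7 were higher, beside 14.4%. On both scales of −log10 p, 11 members were lower and 11 higher. The share of all genes separated on both scales was not counted, so these numbers only serve to choose genes described next.

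**Figure D1:**
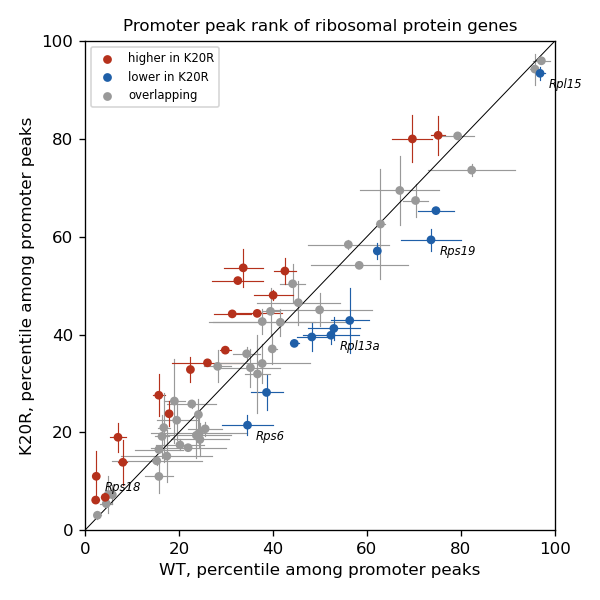
Rank of the promoter peak of 70 of the 72 ribosomal protein genes in WT (x axis) and K20R (y axis), as percentile by −log10 p among the 13559 promoter peaks ranked anew. Points are means of 2 libraries, lines span both libraries, and colours mark the 18 plotted members higher and the 11 lower in both K20R libraries, which lie on both sides of the diagonal.

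Rps19, of the small subunit and the gene most often mutated in Diamond-Blackfan anaemia, had the largest difference ranked anew among those lower on both scales. Its percentiles were 80.1 and 67.3 in WT against 57.1 and 61.7 in K20R. Those of Rpl21 were 52.3 and 60.4 in WT against 36.3 and 49.5 in K20R. Rps6, the small subunit protein phosphorylated by S6 kinase, had 39.96 and 29.2 in WT against 23.5 and 19.4 in K20R. In both Rps19 and Rps6 the WT libraries themselves differed by over 10 points. Rpl13a, which also takes part in translational silencing after interferon, had 58.4 and 46.4 in WT against 38.1 and 41.6 in K20R. Rps20 and Rpl7a were the other 2 of the 6 largest differences, with WT values of 47.4 and 58.5 for Rps20 and 42.1 and 35.2 for Rpl7a. Their K20R values were 39.0 and 43.5 for Rps20 and 24.5 and 31.8 for Rpl7a.

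Other members were higher in K20R on both scales. Ranked anew, Rpl35, next to the exit of the peptide tunnel, had 29.6 and 37.8 in WT against 57.5 and 49.8 in K20R. Rps2, at the entry of the mRNA, had 27.1 and 38.0 in WT against 51.4 and 50.7 in K20R. Rplp0, the base of the P stalk, had 27.3 and 35.3 in WT against 44.4 and 44.1 in K20R. Rps15 and Rps10 followed, with 5.35 and 8.66 against 21.9 and 16.0 for Rps15 and 16.9 and 14.4 against 23.3 and 31.9 for Rps10. For these genes the genotypes were separated on both scales. As for the surroundings of single members, the median difference of other regions with 4 peaks within 1 Mb (K20R minus WT, percentiles among all such regions) was -5.10 around Rps27l and 4.29 around Rpl14.

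The peaks of ribosomal protein genes were wider in K20R EBs. Their median width was 837 and 869.5 bp in WT against 959.5 and 1032 bp in K20R, whereas it was 1126 and 1156 bp in WT against 1141 and 1226 bp in K20R over all genes. The means of these medians were 853 ± 23.0 bp in WT against 996 ± 51.3 bp in K20R (SD, n = 2). Both K20R libraries were wider than both WT libraries in 43 members (59.7%), beside 27.3% of all genes, and narrower in 2 members, beside 14.3% of all genes. The median difference per gene was 155 bp in the members and 29.5 bp over all genes, and the mean of K20R was above that of WT in 66 of the 72 (91.7%) and in 59.9% of all genes.

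The additional width lay mainly on the side of the gene body. The downstream edge was at a median of 418 and 392.5 bp in WT against 513.5 and 494.5 bp in K20R, and over all genes at 608 and 617 bp in WT against 625 and 667 bp in K20R. It was further from the TSS in both K20R libraries in 46 members (63.9%), beside 25.8% of all genes, and nearer in 0 members, beside 13.7% of all genes. The median difference per gene was 110 bp in the members and 14.5 bp over all genes. The upstream edge was at medians of 427 and 449.5 bp in WT against 435 and 483 bp in K20R, which overlap. It was further in 24 members, beside 23.1% of all genes, and nearer in 10, beside 15.6%. Of the 43 wider members, 37 had a further downstream edge and 20 a further upstream edge. Width is made up of both edges, and the same split was not counted for the wider genes among all genes. Edges were added as a measure after the widths had been seen.

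**Figure D2:**
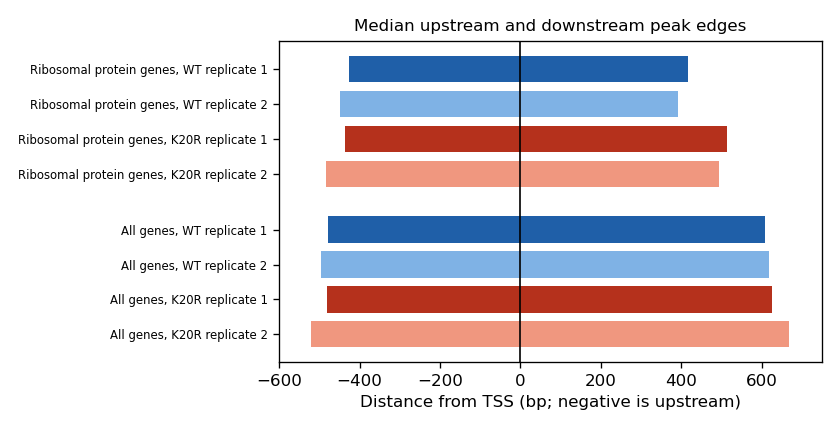
Median upstream and downstream edges of the promoter peak, in bp from the TSS (vertical line, negative is upstream), in each library for the 72 ribosomal protein genes and all 13559 genes. In the ribosomal protein genes the right ends of the bars are at 418 and 392.5 bp in WT against at 513.5 and 494.5 bp in K20R.

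The same was found in both subunits. In the small subunit 16 of 30 genes were wider and 0 narrower, and the downstream edge was further in 18 and nearer in 0. In all 30 the mean downstream edge of K20R exceeded that of WT, as it did in 59.1% of all genes. In the large subunit 27 of 42 genes were wider and 2 narrower, and the downstream edge was further in 28 and nearer in 0. A peak can also span a neighbouring promoter, as in the 14 members that share theirs with another protein-coding gene. Among the 58 other members, 34 were wider and 1 narrower, and the downstream edge was further in 36 and nearer in 0.

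**Figure D3:**
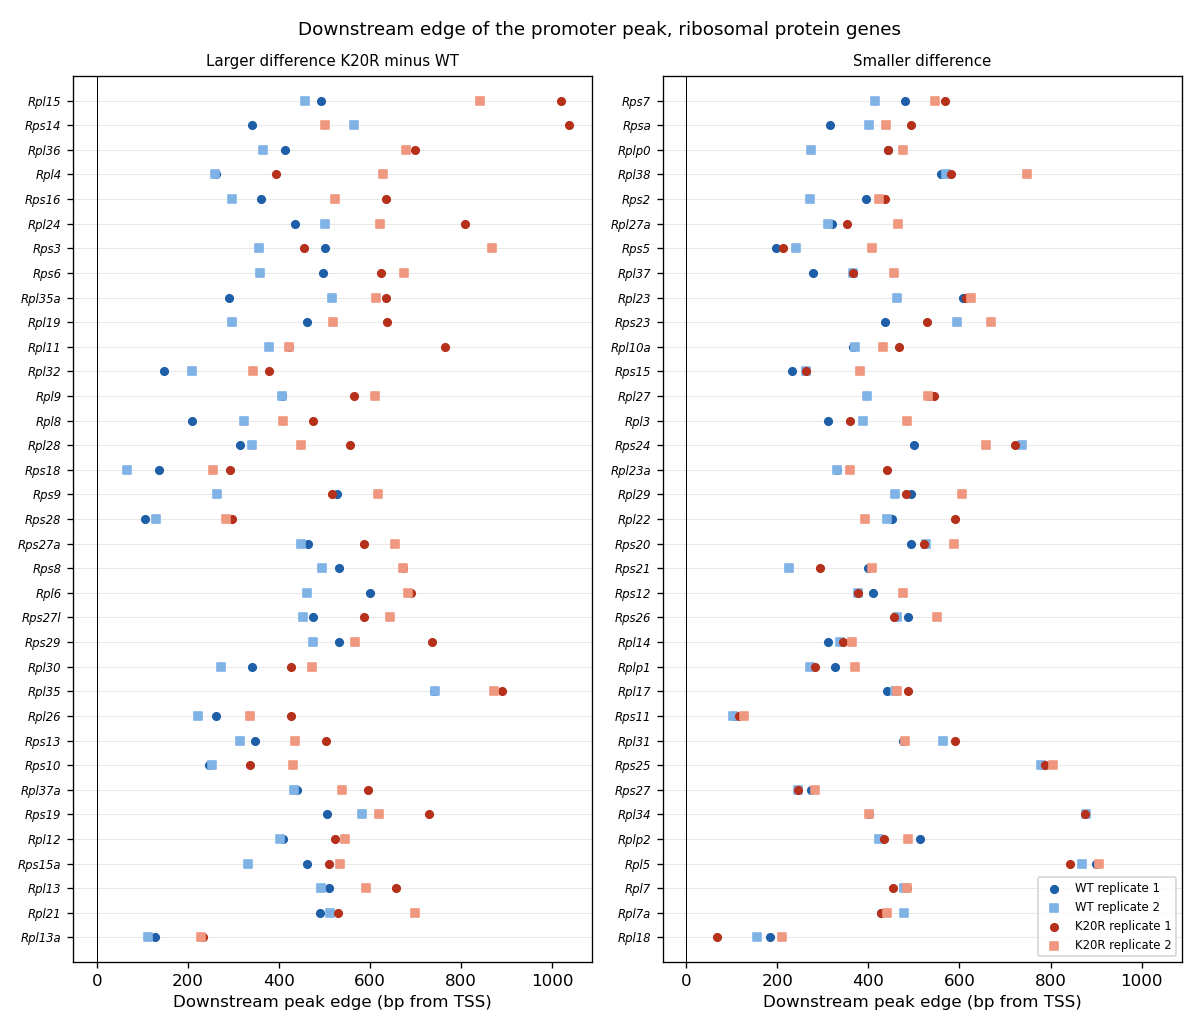
Downstream edge of the promoter peak in bp from the TSS for 70 of the 72 members in the 4 libraries (blue WT, red K20R, circles replicate 1, squares replicate 2), ordered by the difference of the means. Both red points lie to the right of both blue points in 44 of the plotted members, and in none do both lie to the left.

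The largest difference in the downstream edge was at Rpl15, where it was at 492 and 458 bp in WT against 1019 and 841 bp in K20R. Its peak was 932 and 907 bp wide in WT against 1445 and 1309 bp in K20R, and is shared with Nkiras1. The gap between genotypes at Rpl15 was larger than the spread within either. In Rps14 the values were 340 and 566 bp in WT against 1037 and 502 bp in K20R, so that the genotypes overlapped and 1 K20R library set the difference of means. At Rpl36 the edge was at 414 and 366 bp in WT against 698 and 680 bp in K20R. Rpl32 and Rps28, with short downstream sides in WT (148 and 209 bp, 107 and 130 bp), reached 379 and 343 bp and 296 and 283 bp in K20R.

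The largest gains in width were at Rpl14, Rpl38 and Rpl4, and lay more upstream than downstream. Rpl14 peaks were 1117 and 1177 bp wide in WT against 1888 and 1902 bp in K20R, with the upstream edge at 805 and 838 bp and then 1543 and 1538 bp. A region with a peak in both WT libraries and in neither K20R library lay 2282 bp from the Rpl14 TSS. Rpl38, whose loss in mice alters the patterning of the axial skeleton, had widths of 770 and 1004 bp in WT against 1673 and 1556 bp in K20R. Its downstream edge was at 559 and 571 bp in WT against 581 and 749 bp in K20R. Rpl4, which lines the peptide tunnel, had widths of 1210 and 1150 bp in WT against 1653 and 1867 bp in K20R, with a peak shared with Zwilch. In these 3 genes the upstream edge was further in both K20R libraries than in both WT libraries.

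Peaks were narrower in K20R at Rpl10a and Rpl7a. Rpl10a had widths of 1167 and 1135 bp in WT against 856 and 1083 bp in K20R, but its downstream edge was further, at 367 and 370 bp in WT against 468 and 432 bp in K20R. Rpl7a had 1100 and 1215 bp in WT against 1037 and 1098 bp in K20R, and its peak is shared with Med22. In both genes the upstream edge was nearer to the TSS in K20R. The widest peaks of the family, at Rpl7, Rpl22 and Rpl14, included Rpl7 with 2107 and 2236 bp in WT against 2117 and 2220 bp in K20R, which overlap. Rpl22, which is known for its part in T cell development, had 1531 and 1595 bp against 1687 and 1599 bp. The narrowest were Rps15 (469 and 488 bp in WT, 476 and 574 bp in K20R), Rpl23a (448 and 453 bp in WT, 564 and 819 bp in K20R) and Rpl13a (552 and 521 bp in WT, 643 and 661 bp in K20R).

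Among the members with known functions outside the list above, Rpl5 and Rpl11 bind 5S rRNA and hold back Mdm2 when ribosome assembly fails. Rpl5 had downstream edges of 900 and 869 bp in WT against 842 and 906 bp in K20R, which overlap. Rpl11 had 422 and 378 bp in WT against 766 and 422 bp in K20R, so 1 K20R library had the same edge as 1 WT library. Of the other genes mutated in Diamond-Blackfan anaemia, Rps7 (481 and 414 bp, 568 and 546 bp), Rpl35a (290 and 517 bp, 636 and 614 bp), Rps10 (246 and 253 bp, 337 and 430 bp) and Rps19 (506 and 582 bp, 729 and 619 bp) were further in K20R. Rps24 (500 and 738 bp, 721 and 658 bp) and Rps26 (487 and 462 bp, 457 and 550 bp) overlapped. Rpsa, the laminin receptor precursor, was at 315 and 401 bp in WT against 494 and 439 bp in K20R. Rps27a, which is made as a fusion with ubiquitin, was at 463 and 449 bp in WT against 587 and 656 bp in K20R. Rps3, which also has a part in DNA repair, was at 501 and 356 bp in WT against 455 and 868 bp in K20R and overlapped. Of the P stalk genes, none had a separated downstream edge: Rplp0 was at 444 and 273 bp in WT against 444 and 477 bp in K20R, Rplp1 at 326 and 271 bp against 282 and 371 bp, and Rplp2 at 514 and 424 bp against 434 and 487 bp. Rps27l, a paralog of Rps27 induced by p53, was at 475 and 452 bp in WT against 588 and 645 bp in K20R.

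In the 46 members with a further edge, the stretch between the mean WT and K20R edges had a median length of 138.5 bp, from 14 to 455 bp, and 6844 bp in all. Of these bases 64.0% were intronic and 36.0% exonic, and none lay beyond the end of the gene. The stretch was mostly intron in 29 of the 46. The members are short genes, with a median length of 3399.5 bp against 25102 bp over all genes with 4 peaks. Genes shorter than 10 kb were therefore compared. Of 3209 such genes, 951 were wider and 467 narrower, and the downstream edge was further in 916 and nearer in 394 (28.5% and 12.3%), close to the percentages of all genes. The share of 63.9% in the members stood above that of the short genes, without a test.

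The recovered values of the peak summit were compared next, as log2 values relative to the median of all promoter peaks in the same library. The pileup at the summit was higher in both K20R libraries in 26 members, beside 25.8% of all genes, and lower in 5, beside 24.4%. The background level that MACS2 sets against a summit was higher in 39 members, beside 25.9% of all genes, and lower in 9, beside 24.8%. Its members' medians were 0.35 and 0.32 in WT against 0.44 and 0.43 in K20R. For Rps19 it was 0.94 and 0.84 in WT against 1.21 in both K20R libraries, and for Rpl14 0.41 and 0.31 in WT against 0.02 and 0.13 in K20R. As no control library was named for these peaks, that background is taken from a window around the summit that holds the peak itself, so it is not independent of the width. Of the 46 members with a further downstream edge, 25 had a higher background, beside 39 of all 72 members compared (54.2%). The part of the background and of depth in the width was not tested. Markers of mesoderm, pluripotency, endoderm, neuroectoderm and fibroblasts also differed in percentile: of 13 with 4 peaks, 7 were lower and 3 higher in both K20R libraries, beside 31.6% and 16.1% of all genes. Among the mesoderm markers, T was at 83.1 and 82.8 in WT against 66.7 and 65.6 in K20R and Mixl1 was lower too, whereas Mesp1 was at 43.5 and 43.4 in WT against 67.3 and 72.4 in K20R, and Eomes at 72.8 and 65.8 against 75.5 and 74.1. The others that were lower were Nanog, Sox17, Foxa2, Pax6 and the fibroblast marker Thy1, and Sox2 was higher. Col1a1, Col1a2 and Sox1 overlapped. The part of cell composition in the results on ribosomal protein genes was not tested.

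To determine whether other genes of protein synthesis differed in the same way, lists of related genes were compared. The genes of mitochondrial ribosomal proteins, which form the separate ribosome of mitochondria, had 4 peaks in 77 of 78 cases. Of these 15 were wider and 6 narrower, and the downstream edge was further in 17 and nearer in 10 (22.1% and 13.0%), close to the percentages of all genes. A list of 14 other genes whose mRNAs carry a TOP tract holds translation factors and also Npm1, Naca, Tpt1 and Hnrnpa1, which are not translation factors. All 14 had 4 peaks, and 7 were wider and 2 narrower, with a downstream edge further in 8 and nearer in 1. Npm1, Naca, Tpt1 and Hnrnpa1 were among both the wider and the further. Eef1a1, which brings aminoacyl-tRNA to the ribosome, was 1072 and 981 bp wide in WT against 1480 and 1829 bp in K20R. Eef2, which moves the ribosome along the mRNA, was 715 and 464 bp wide in WT against 682 and 807 bp in K20R and overlapped. Of the 22 autosomal ribosome biogenesis genes with 4 peaks, 6 were wider and 3 narrower, with the edge further in 5 and nearer in 2, and the X-linked Dkc1, also with 4 peaks, overlapped in width and edge.

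Ribosomal protein genes and paralogs of them that the symbol rule leaves out were read in the same way. Of the 6 on autosomes 4 were wider and 0 narrower, with the downstream edge further in 4 and nearer in 1. Rpl36al was among the wider and was also the gene with the nearer edge. Its peak was 1488 and 1477 bp wide in WT against 1496 bp in both K20R libraries. Fau, which encodes a small subunit protein as a fusion with a ubiquitin-like part, was 637 and 636 bp wide in WT against 806 and 721 bp in K20R. Rack1, a scaffold on the small subunit, was 993 and 1142 bp wide in WT against 1399 and 1325 bp in K20R. On the X chromosome, Rpl10, Rpl36a and Rpl39 were wider in both K20R libraries and Rps4x overlapped. The downstream edge of Rpl36a was at 412 and 378 bp in WT against 700 and 981 bp in K20R. That of Rpl39 was at 450 and 426 bp in WT against 703 and 659 bp in K20R.

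**Figure D4:**
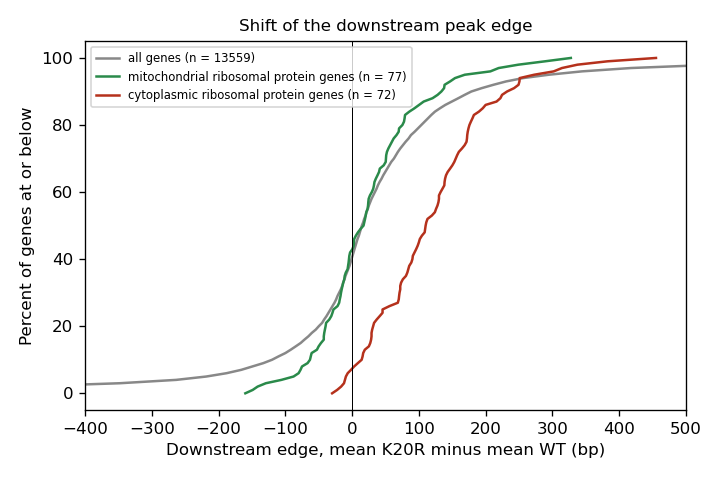
Difference of the downstream edge, mean of K20R minus mean of WT in bp (x axis, with the outermost genes beyond its ends), and the percent of genes at or below it (y axis) for 72 cytoplasmic ribosomal protein genes, 77 mitochondrial ribosomal protein genes and all 13559 genes. The curve of the cytoplasmic genes lies to the right, with a median of 110 bp against 17 bp in the mitochondrial genes and 14.5 bp over all genes.

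Regions near the members were counted last. Peaks of the 4 lists were merged where they overlapped, and a region with peaks in both libraries of 1 genotype and none in the other was called restricted. The span counted ran from 10000 bp before the first TSS of a gene to 10000 bp after its last. In the spans of members 15 regions were restricted to WT and 5 to K20R, or 5.79 and 1.93 per 100 regions. Over all autosomal protein-coding genes there were 6.67 and 2.16 per 100. The WT-restricted region at Rps14 was 12466 bp from its nearest TSS. A WT-restricted region was found for 18.4% of members and 11.3% of all genes, and a K20R-restricted region for 6.58% and 4.14%. With 50000 bp on either side there were 50 and 23, or 5.99 and 2.75 per 100, against 7.52 and 2.73. A WT-restricted region was then found for 38.2% of members and 35.3% of all genes, and a K20R-restricted region for 28.9% and 16.3%. Of the 5 K20R-restricted regions within 10000 bp, 2 were the promoter peaks of Rpl10l and Rpl39l. Rpl18 had 2 WT-restricted regions in its surroundings, 2700 and 3977 bp from the TSS.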

How the data were processed

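ATAC-seq peak lists of 2 WT and 2 K20R libraries of day 4 were used. According to the methods, the authors trimmed reads with Trim_Galore, mapped them to mm10 with bowtie2, removed reads of low mapping quality, duplicates and blacklisted regions, and called peaks with MACS2. In the deposited lists the authors give for each peak its interval and summit, a score (10 times the −log10 p), a fold (the ratio of summit pileup to local background), a −log10 p and a −log10 q. Peak numbers in the deposited lists have gaps, and 50.5% to 60.8% of numbers are listed, so called peaks were removed by a rule that is not stated. Read counts were not used here, so no test on reads was possible.

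Percentiles were computed within each list from −log10 p, and the width and edges from the interval, relative to 1 TSS per gene, the one nearest to the mean summit. The summit pileup and background were recovered from fold and p, for 100% of peaks within a tolerance of 0.01. Depth is known only as relative depth from the background level and the shortest peak. TSSs came from GENCODE vM21 basic, of the same build as the lists. Separation of genotypes was read from the 4 values, with no model. Scripts ran in Python 3.11.15 with numpy 2.4.6, pandas 2.3.3, scipy 1.17.1 and matplotlib 3.10.9 and were tested on simulated data. Genes described singly were those without 4 peaks, the 6 highest and 6 lowest in mean percentile, the 6 largest differences each way among those separated on both scales, the 3 widest and narrowest, the largest separated widths, and genes of known function; Rps14, Rpl32, Rps28 and those of the other lists were named after their values were seen. The members and lists were chosen with earlier results of these data known. Promoters of 20 members were not matched and are not analysed here. Single values of 2 members are not reported here, in the text or the plots by member, and the counts over members include them.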

Additional observations from a re-analysis of the deposited data

How the results depend on the processing

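Wider peaks and further downstream edges of the members outnumbered narrower and nearer ones in every alternative run. The balance by rank turned with the scale, and over all genes it shifted the same way. With 2 libraries per genotype no count carries a p, and without reads the precision of a peak edge is not known. Percentages in parentheses are those of all genes in the same setting.

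With only peaks of a −log10 q of at least 10, 8 members were lower in percentile (18.1%) and 3 higher (14%), of 65 compared. With the same number of strongest peaks in each list, 9 were lower (18.4%) and 26 higher (30.0%), and the median percentile of members differed by 3.07. Ranked anew among promoter peaks, 11 were lower (23.0%) and 19 higher (23.9%), with a difference of 3.03. Ranked by fold, 7 were higher (14.4%) and the difference was -7.02, whereas it was -0.38 by −log10 p in the list. With the gene's 5′ end as the only TSS, 4 members were narrower (14%) and 1 had a nearer downstream edge (13.2%). Centred on the median of all promoter peaks, 5 had a nearer edge (30.2%) and 33 a further one (13.7%). Among the 58 members whose peak no other gene shares, 1 was narrower (14.3%). The cause of these changes was not tested.

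With 3 libraries a separation is easier to reach, for the members and for all genes. Leaving out 1 library at a time, the members lower in percentile numbered 25 to 35 (41.7% to 49.4%), those higher 18 to 22 (25.5% to 31.5%), those narrower 3 to 8 (20.0% to 35.6%) and those wider 49 to 60 (35.4% to 51.6%). The downstream edge was further in 51 to 62 (35.0% to 47.5%) and nearer in 1 to 4 (20.3% to 33.3%), and the background was higher in 42 to 50 (38.0% to 40.1%) and lower in 12 to 15 (35.3% to 36.8%). The difference of median widths was 106 to 179 bp, that of median percentiles -0.80 to 0.030, and 72 members had a peak in each of these settings. Over 1.5 times the count with 4 libraries were the lower members without WT replicate 2 (35 members) or K20R replicate 2 (33 members), the higher members without any one library, the narrower members without WT replicate 1 (5) or K20R replicate 2 (8), and those with a lower background without WT replicate 2 (15) or K20R replicate 2 (14).

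After ranking anew or centring on the median of each library, deviations of same-numbered libraries correlated at 0.038 for rank, 0.0076 for width and -0.13 for the downstream edge. Ranking and centring remove a shift shared by a whole list, so these values cannot exclude that the replicate numbers pair the libraries. Replicate 2 had more peaks than replicate 1 in both genotypes (66703 against 59783 in WT, 55832 against 51823 in K20R). With the replicate number as a block, where both same-numbered differences had to have the same sign, 50 members were wider (37.6%) and 3 narrower (20.3%), the edge was further in 53 (35.0%) and nearer in 0 (20.1%), the background higher in 48 (40.1%) and lower in 13 (36.7%), and 23 were lower (40.6%) and 14 higher (22.2%) in percentile. With the numbers crossed, 53 were wider (34.6%) and 2 narrower (20.2%), and the edge was further in 54 (33.5%) and nearer in 1 (19.6%). The edge, background, centred, unshared and crossed alternatives were chosen after seeing the data.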
